A study of Mus musculus with 16 samples.

Results

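The comparison set 3 kinds of cardiac progenitor cell against 2 kinds of bone marrow cell and asked which genes every heart population shared. It used 14 of the 16 arrays of the study, 8 from the heart and 6 from the marrow, chosen by the tissue and the sort named in the labels and not by any measured value. The 3 heart groups counted equally on the heart side, and both marrow groups counted equally on the marrow side. Every mouse was of the C57BL/6 strain, and the labels call the genotype normal.

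Heart c-kit cells (3 arrays) were collected by c-kit, a tyrosine kinase receptor for stem cell factor. Heart Sca1 cells (3 arrays) were sorted for stem cell antigen 1 and against CD45, which marks leukocytes, and CD31, which marks endothelium. Cardiac side population cells (cardiac SP, 2 arrays) were sorted for the export of a Hoechst dye, a property that depends on transporters such as Abcg2. Marrow c-kit cells (3 arrays) carry the receptor that marks blood stem and progenitor cells and mast cells. Marrow mesenchymal stem cells (marrow MSC, 3 arrays) had been passaged 5 times. Cardiomyocytes (2 arrays), collected by a spin at 100 rpm for 1 min, served as a reference and entered no contrast. One growth protocol, on Matrigel-coated dishes in mTeSR medium, is attached to all samples, so the labels do not tell which sorted cells were cultured and for how long. They do not say either whether the replicates of a group came from separate animals, and a p-value here measures the spread between these arrays only.

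As background, c-kit, Sca1 and the side population are surface or functional handles for cells of the adult heart that can be grown as progenitors, and each handle also picks up endothelial and stromal cells. Wt1 is the transcription factor of the epicardium, the outer cell sheet of the heart, and it also appears in coronary endothelium. Sox7 belongs to the SoxF factors of endothelial cells. Fhl1 is a protein with LIM domains that binds to the sarcomere and is also made by stromal cells.

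A level below is a quantile-normalised log2 value of a spot, and a difference is heart minus marrow in log2 units with its standard error (SE). A gene counted as called where limma gave it an adjusted p below 0.05 (Benjamini-Hochberg over 17710 genes). Spot intensities here were inferred from the deposited log2 values, by the offset per array that turned low values into whole numbers. The median inferred spot intensity of an array ranged from 15 to 200. It was lowest on both cardiac SP arrays (15 and 22) and on heart c-kit replicate 2 (18). Replicates correlated at r = 0.748 for cardiac SP, 0.791 to 0.805 for heart c-kit and 0.8935 for cardiomyocytes. For heart Sca1, marrow c-kit and marrow MSC cells they correlated at 0.910 to 0.942. On each array, 3.38% to 13.8% of probes stood at a single repeated low value, called the fill value here. In RNA from a whole sort, fewer cells of a type and less RNA per cell cannot be told apart.

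The sorts were checked against their genes. Kit, the c-kit receptor, had a level of 2.13, 5.04 and 3.83 in heart c-kit cells and 5.18, 5.82 and 5.50 in marrow c-kit cells. It did not exceed 0.28 on any heart Sca1, cardiac SP or marrow MSC array. Ly6a, which encodes Sca1, was not analysed here. Abcg2 had a level of 0.59 and 4.41 on the cardiac SP arrays and of 2.35 to 5.33 on the other heart and marrow arrays, so the side population did not stand out for it. Pecam1, which encodes CD31, reached 5.38 on heart Sca1 replicate 3 against 1.57 and 3.39 on the other Sca1 arrays, although the sort excluded CD31. Ptprc, which encodes CD45, reached 2.94 on that array against 0.40 and -0.89. Heart Sca1 replicate 3 thus stood apart for Pecam1 and Ptprc, though over all genes the Sca1 arrays correlated alike (r = 0.910 to 0.917). Some of the values that move without replicate 3 are given below. Marrow MSC carried Ptprc at 6.71, 7.53 and 6.91, overlapping the marrow c-kit arrays at 8.39, 7.85 and 6.30. They also carried Csf1r, the macrophage growth factor receptor, at 6.59, 6.89 and 5.87, beside the collagen gene Col1a2 at 5.69, 5.16 and 4.65.

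In the pooled contrast 3631 genes (20.5%) were called, 1616 higher (9.12%) and 2015 lower (11.4%) in the heart groups. The median difference over all genes was 0.05. Against the marrow mean, heart c-kit cells gave 2060 called genes (11.6%, with 4.36% higher and 7.27% lower). Heart Sca1 cells gave 2691 (15.2%, with 8.76% higher and 6.43% lower), and cardiac SP cells 3927 (22.2%, with 9.99% higher and 12.2% lower). The order of these counts depends on the weighting. With array weights per group they were 1240 in heart c-kit, 4624 in heart Sca1 and 1784 in cardiac SP cells. These 3 contrasts share the marrow arrays and are therefore not independent of each other. A gene was taken as shared when it was called in the pooled contrast and in all 3 of these contrasts in one direction. There were 659 shared genes (3.72%), 287 higher (1.62%) with a median difference of 3.83 and 372 lower (2.1%) with a median of -4.43. The rule compares with the marrow mean and not with each marrow group. Of the shared genes, 225 higher and 350 lower ones kept their sign in all 6 pairs of a heart and a marrow group. The rest did not lie beyond both marrow groups in every heart group. The cardiomyocyte mean lay above every marrow array for 231 of the shared higher genes (80.5%, against 16.3% of all genes). It lay below every marrow array for 319 of the shared lower genes (85.8%, against 22.1% of all genes). Most shared genes were thus not particular to the progenitor groups.

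**Figure D1:**
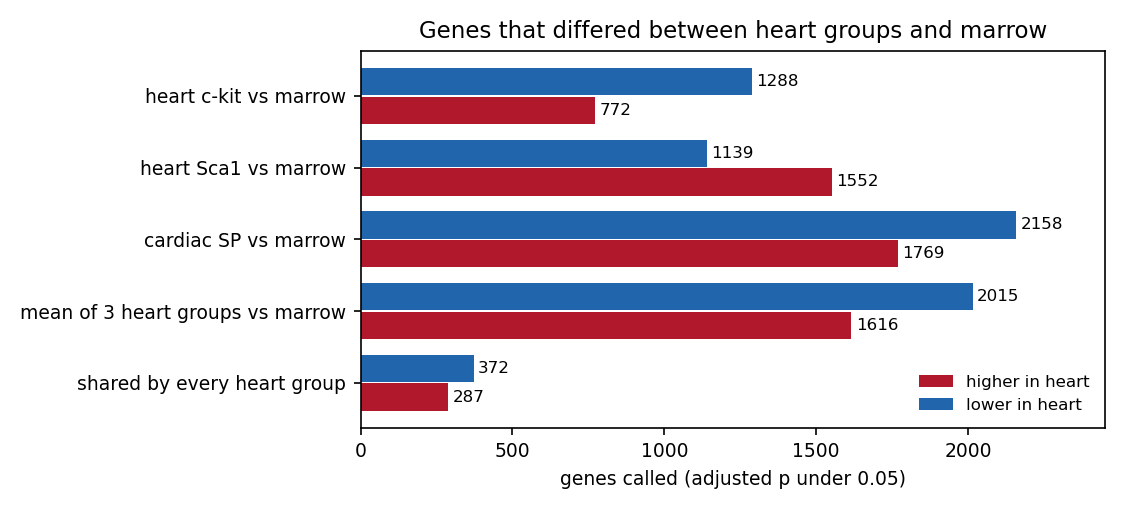
Number of genes called (x axis, adjusted p under 0.05, limma) in each contrast of a heart group with the marrow mean, in the mean of the 3 heart groups, and shared by every heart group. Red bars count genes higher in the heart and blue bars genes lower. The shared genes, 287 higher and 372 lower, are fewer than the calls of any single contrast.

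Of the shared higher genes, 145 had all 8 heart arrays above all 6 marrow arrays, as did 200 of all genes (1.13%). Of the shared lower genes, 262 had all heart arrays below all marrow arrays, as did 464 of all genes (2.62%). At least 1 marrow array stood at the fill value for 43 of the shared higher genes, and at least 1 heart array for 150 of the shared lower genes, so the sizes of those differences are uncertain. When the 5 populations themselves were taken as the replicates (3 against 2, limma), only 10 genes were called, with adjusted p of 0.0370 to 0.0378. Sox7 and Tmem204 were higher, and Atp8b4, Ccna2, Mcpt8, Neil3, Runx3, Pclaf, Tbxas1 and Hk3 were lower. With array weights per group, 419 genes were shared, and without heart Sca1 replicate 3 there were 577 (246 higher and 331 lower). Without heart Sca1 replicate 1 there were 539 and without replicate 2 there were 527, fewer than without replicate 3. With only the array medians aligned, in place of quantile normalisation, the median difference over all genes was 0.62 and 68.1% of the calls were higher, against 44.5%. The share of higher calls then moved from 37.5% to 49.4% in heart c-kit cells and from 45% to 76.1% in cardiac SP cells, where higher calls outnumbered lower ones (3456 against 1086) instead of the reverse.

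Sox7 was the clearest of the named cardiac markers. Its level was 3.68, 5.60 and 3.83 in heart c-kit cells, 2.93, 3.76 and 4.44 in heart Sca1 cells, and 2.58 and 3.94 in cardiac SP cells. In the marrow it was -3.65, -4.57 and -4.50 in c-kit cells and -5.50, -2.26 and -4.02 in MSC. Every heart array lay above every marrow array, with 4.84 log2 units between the nearest pair. The difference was 7.86 ± 0.54 (SE, limma adjusted p = 5.51e-07), and it was 8.45, 7.79 and 7.35 in heart c-kit, Sca1 and SP cells taken singly. The marrow spots read 2 to 44 intensity units on arrays with medians of 64 to 173, and MSC replicate 1 was at the fill value, so the size depends on low spots. With all values below the 30th percentile raised to it, the difference was 5.42. The F test among the 3 heart groups did not pass (limma adjusted p = 0.602), and Sox7 was shared under all 27 processing alternatives that give a gene a value in each heart group.

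Wt1 was shared too, but unevenly. It stood at 4.34, 3.96 and 5.03 in heart c-kit cells, at 2.83, 1.58 and 5.35 in heart Sca1 cells, and at -0.95 and 0.52 in cardiac SP cells. The marrow c-kit arrays had -6.08, -2.93 and -3.87 and the MSC arrays -5.50, -4.29 and -1.78. The heart arrays were all higher, yet the lowest SP array and the highest MSC array were only 0.83 apart. The pooled difference was 6.57 ± 0.73 (SE, limma adjusted p = 2.41e-05), with 8.52 in heart c-kit, 7.33 in Sca1 and 3.86 in SP cells, and the F test among the heart groups passed (adjusted p = 0.0407). Before normalisation the SP spots read 10 and 38 intensity units and the marrow spots 1 to 17, against 371 to 3997 in the other heart groups. Marrow c-kit replicate 1 and MSC replicate 1 stood at the fill value, and the difference with low values raised was 4.13. Wt1 was shared in 23 of 27 alternatives. It was lost with array weights, with the deposited values unchanged, with low values raised and without cardiac SP replicate 2, and its difference without heart Sca1 replicate 3 was 6.22.

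Fhl1 was high in the heart but not shared by every group. Heart Sca1 cells had 8.45, 8.52 and 8.39 and cardiac SP cells 8.44 and 8.50, while heart c-kit cells had 1.56, 3.27 and 3.87. Marrow c-kit cells had -4.66, -5.89 and -3.87, and MSC had -5.50, 3.22 and 4.64. MSC replicates 2 and 3 thus overlapped the heart c-kit arrays. The pooled difference was 8.62 ± 1.21 (SE, limma adjusted p = 0.000173), but heart c-kit cells alone gave 4.91 ± 1.58 (adjusted p = 0.0607). Of the 27 measured genes of LIM-domain proteins, 6 were higher, 1 was lower and 20 were not called, with a median of 0.43. That is 25.9% called, against 20.5% of all genes.

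**Figure D2:**
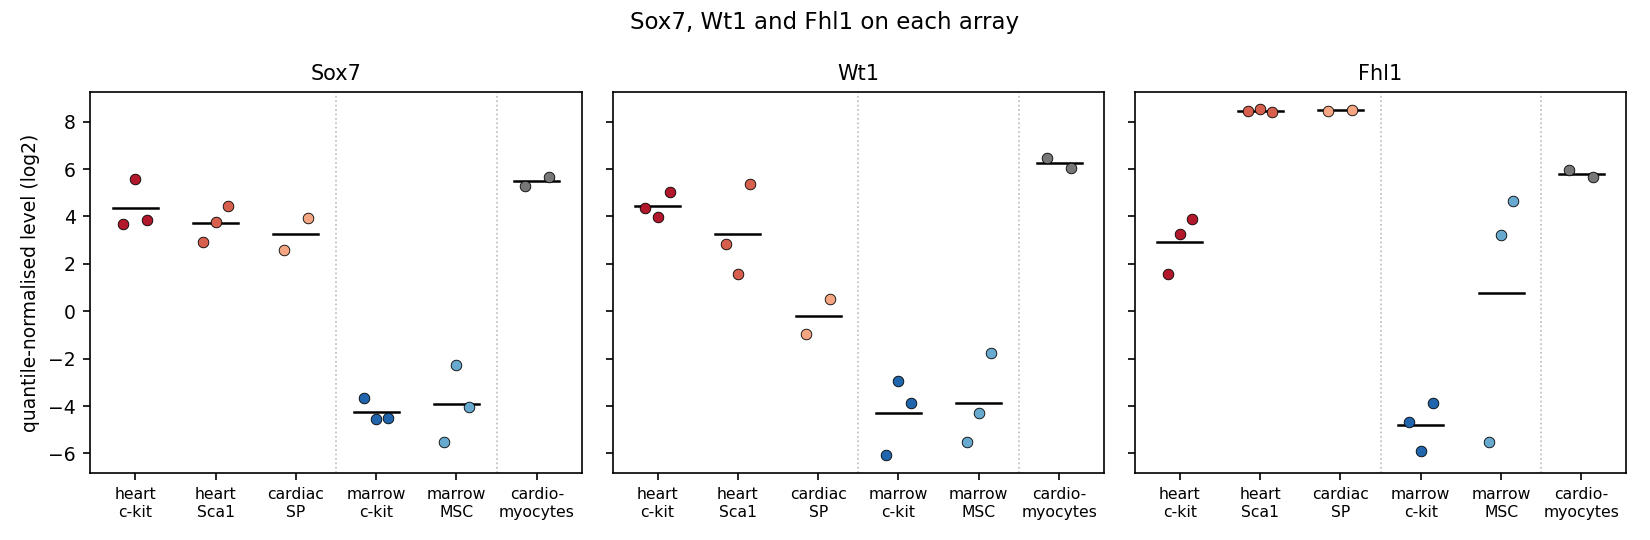
Level of Sox7, Wt1 and Fhl1 (y axis, quantile-normalised log2) on each array of the 6 groups, with the group mean as a bar and dotted lines between heart, marrow and cardiomyocyte arrays. Sox7 separates the heart from the marrow in every group, Wt1 is lowest among the heart arrays in cardiac SP cells, and Fhl1 in MSC spans from -5.50 to 4.64.

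Endothelial genes were higher in the heart groups, and most strongly in heart c-kit cells. Of 39 measured, 27 were higher (all genes 9.12%), 1 (Vwf) was lower (11.4%) and 11 were not called, with a median of 2.73. Heart c-kit cells had 31 of them higher (all genes 4.36%), Sca1 cells 16 (8.76%) and SP cells 8 (9.99%), with medians of 4.29, 1.94 and 1.12. In the same contrasts 1 was lower in Sca1 cells and 3 in SP cells. With low values raised Vwf was no longer called (limma adjusted p = 0.179). The shared ones were Sox7, Tek, Ptprb, Ramp2, Pecam1, Nrp1 and Cd34. Tek is the receptor for angiopoietins, and Ptprb is the phosphatase that acts on it.

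Tek had a level of 3.56, 4.49 and 4.32 in heart c-kit cells, 6.26, 5.98 and 6.50 in Sca1 cells and 3.18 and 5.38 in SP cells, against -3.75 to -1.38 in the marrow. The groups did not overlap, and the difference was 7.36 ± 0.45 (SE, limma adjusted p = 3.7e-07). Ptprb differed by 6.78 ± 0.57, with heart arrays from 1.82 to 4.73 and marrow arrays from -5.50 to -3.03, and by 4.17 with low values raised. Ramp2, the partner of the receptor for adrenomedullin, was lower in heart c-kit cells (4.11, 1.72 and 2.44) than in Sca1 cells (6.56, 6.58 and 6.70) and SP cells (6.95 and 6.79). All of these still lay above the marrow, where its level was -1.47 to -0.62.

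Some other endothelial genes were high in heart c-kit cells and were not called in SP cells. Cdh5, the cadherin of endothelial junctions, stood at 6.11, 6.60 and 5.85 in heart c-kit cells, at -3.41, 1.43 and 4.82 in Sca1 cells, at -2.83 and -2.03 in SP cells, and at -4.37 to -2.60 in the marrow. It was called in heart c-kit cells (9.52) and in Sca1 cells (4.29) but not in SP cells (0.91, adjusted p = 0.69, limma). Without heart Sca1 replicate 3 the Sca1 difference was 2.35 and no longer passed (adjusted p = 0.162, limma). Sox17, another SoxF factor, differed by 9.41 in heart c-kit cells and by 3.10 in SP cells, where it was not called (adjusted p = 0.16, limma), and its pooled difference of 6.19 was 3.33 with low values raised. Robo4, a guidance receptor of endothelium, had a like layout, with 8.28 in heart c-kit cells and 1.32 in SP cells (adjusted p = 0.55, limma).

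The mean level of the endothelial list was 3.93 to 4.41 on the heart c-kit arrays, 1.11 to 1.34 on the SP arrays and -0.42 to 0.05 on the marrow arrays. On the Sca1 arrays it was 1.19, 1.75 and, on replicate 3, 4.15. Without that replicate, 25 of 39 members were higher, 2 were lower and 6 were shared, with Pecam1 no longer among them. The shared call of Pecam1 was also lost without heart Sca1 replicate 2. The mean level on the cardiomyocyte arrays, 5.33 and 5.85, was above that of every progenitor array. The part of admixed endothelial cells in these values was not tested.

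**Figure D3:**
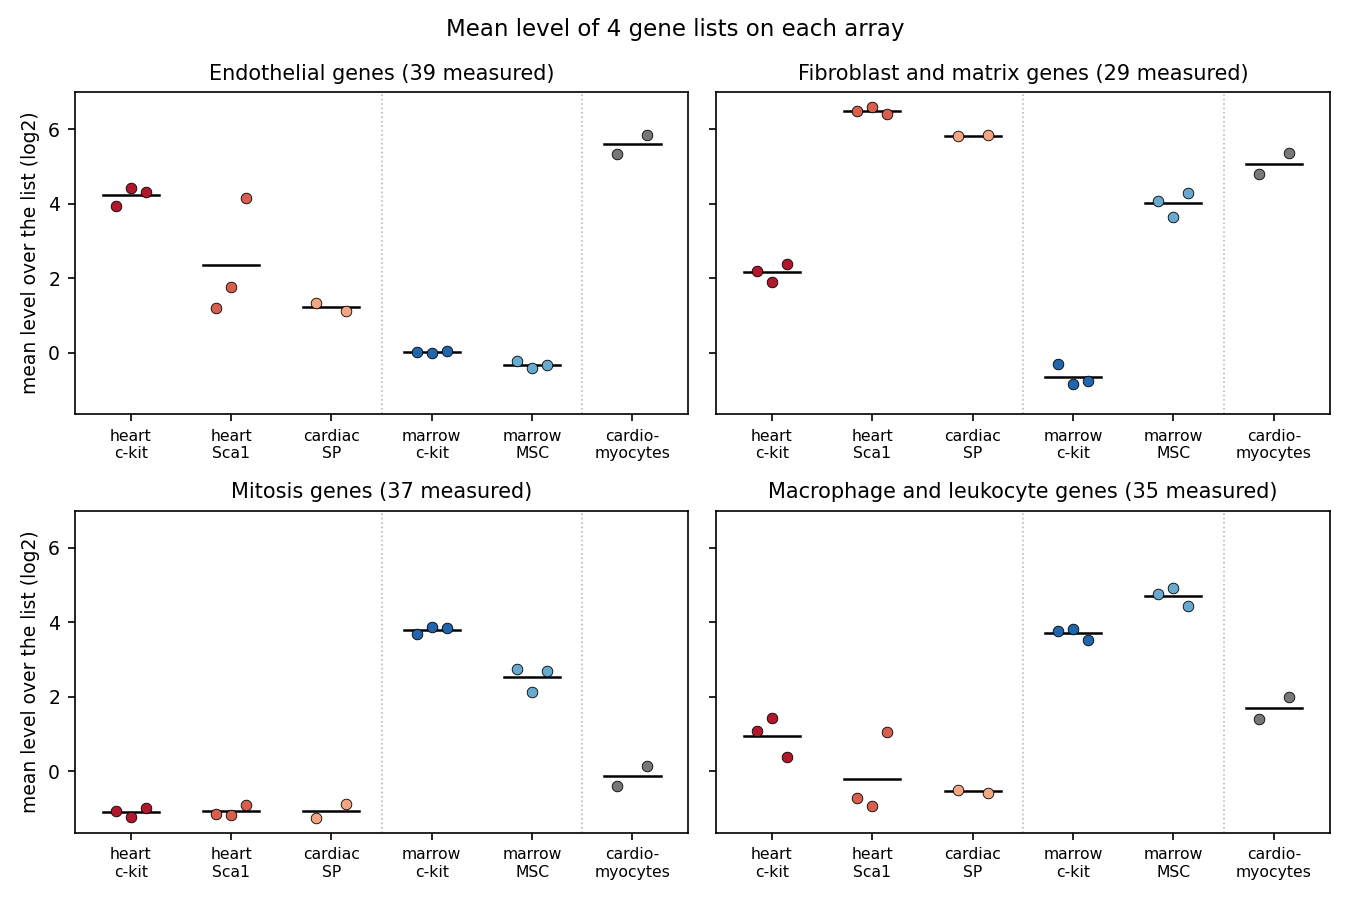
Mean level of 4 gene lists (y axis, quantile-normalised log2, averaged over the measured members) on each array, with group means as bars. Endothelial genes are highest in heart c-kit cells and cardiomyocytes, fibroblast and matrix genes in heart Sca1 and cardiac SP cells, and mitosis genes (2.12 to 3.86) and leukocyte genes (3.52 to 4.92) in both marrow groups.

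The genes that follow are from the 15 shared higher genes with the largest differences in their weakest heart group and no overlap of arrays, and they were chosen for this pattern. Tmem204, a membrane protein of endothelial cells, had 4.53 to 7.05 on the heart arrays and -5.50 to -1.04 on the marrow arrays, a difference of 9.35 ± 0.64 (SE, limma adjusted p = 5.51e-07). Fgd5, an exchange factor for Cdc42 found in endothelial and blood stem cells, differed by 7.82 ± 0.52. Epas1, the hypoxia-inducible factor 2 alpha, differed by 5.81 ± 0.36, and its other probe gave 5.66. Mecom, a transcription factor of blood stem cells and endothelium, differed by 5.87 ± 0.42, but its other probe gave -0.14, and the mean over its probes was not shared.

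Adamts1 and Adamts4, proteases that cleave proteoglycans, differed by 6.78 ± 0.32 and 6.28 ± 0.48. Mmp3, stromelysin, stood at 3.43 to 6.34 on the heart arrays and at -6.08 to 1.68 on the marrow arrays. Dpt, a collagen-binding matrix protein, differed by 9.65 ± 0.84, but heart c-kit replicate 2 had only -0.90 against 3.96 to 8.04 on the other heart arrays. Pxdn, which crosslinks collagen IV, differed by 6.46 ± 0.45.

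The chemokine gene Cxcl1 had 6.93 to 9.08 on the heart arrays. Its marrow levels were 5.89 to 6.20 in MSC and -5.18 to -2.45 in c-kit cells, so its difference of 7.33 ± 0.46 came mostly from marrow c-kit cells. Adamts4 had the same layout, with 5.17 to 6.04 in MSC against 6.16 to 8.01 in the heart. Gsta3, a glutathione transferase, differed by 7.08 ± 0.57.

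Tnnt2, the cardiac troponin T of the sarcomere, was among these genes as well. Its level was 3.03, 3.87 and 5.07 in heart c-kit cells, 3.98, 4.77 and 4.34 in Sca1 cells and 6.13 and 5.76 in SP cells. The marrow arrays had -6.08 to 2.51 and the cardiomyocyte arrays 7.77 and 7.12, so the progenitor arrays fell between them. The difference was 6.53 ± 0.66 (SE, limma adjusted p = 1e-05). Of 12 measured sarcomere genes (24 listed), 5 were higher (all genes 9.12%) and 7 were not called, with a median of 0.94. Tnnt2 was the only shared one. Cardiac actin, Actc1, called at 3.23 (2.06 with low values raised), stood at -3.18 and -5.50 in SP cells against 7.80 and 7.71 in cardiomyocytes, and Tnni3, cardiac troponin I, at -0.35 and 0.13 against 7.68 and 8.11. The mean level of the list was -0.03 to 1.78 on the heart progenitor arrays and 4.25 and 4.56 on the cardiomyocyte arrays. The part of carried-over cardiomyocyte RNA was not tested.

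**Figure D4:**
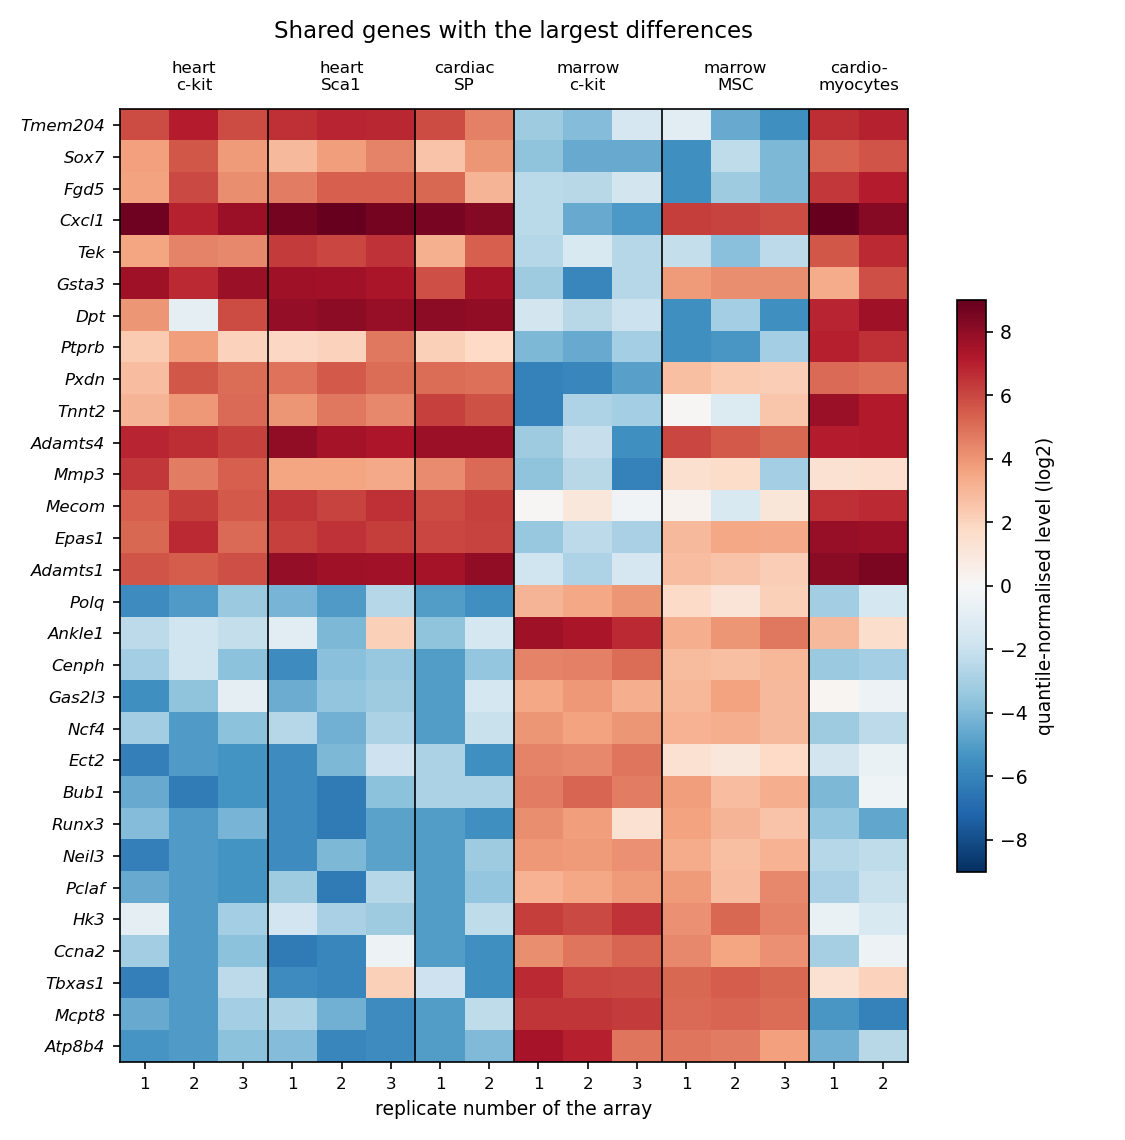
Level (colour, quantile-normalised log2) of the 15 shared higher and 15 shared lower genes with the largest differences in their weakest heart group and no overlap between heart and marrow arrays, on all 16 arrays. Genes in the upper block are at -6.08 to 6.20 on the marrow arrays and those in the lower block at -6.38 to 2.17 on the heart arrays. The genes were chosen for this pattern.

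Transcription factors of the heart and the epicardium were partly higher. Of 27 measured, 11 were higher (all genes 9.12%), 1 (Irx5) was lower (11.4%) and 15 were not called, with a median of 1.59. Gata6, Wt1 and Tbx20 were shared. Gata6, a zinc finger factor of heart muscle and stroma, had 3.46, 2.76 and 4.43 in heart c-kit cells, 3.61, 4.73 and 3.37 in Sca1 cells and 5.10 and 3.96 in SP cells. The marrow arrays had -2.42 to -0.12, with no overlap, and the difference was 5.19 ± 0.45 (SE, limma adjusted p = 3.15e-06). Gata6 was shared in all 27 alternatives.

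Tbx20, a T-box factor of the embryonic and adult heart, was uneven as well. It stood at 5.51 to 6.25 in Sca1 cells and at 6.40 and 6.17 in SP cells, but at -0.74, -3.65 and 3.61 in heart c-kit cells. The marrow arrays had -6.08 to -2.42 and overlapped the heart c-kit arrays, and Tbx20 was shared in 19 of 27 alternatives. The shared call was lost without heart c-kit replicate 1 or 3, among others. Tcf21, the factor of epicardium-derived fibroblasts, differed by 9.46 in Sca1 cells and 8.67 in SP cells, but by 3.41 in heart c-kit cells, where it was not called (adjusted p = 0.13, limma). With low values raised the pooled difference moved from 7.18 to 4.45 for Tcf21 and from 4.79 to 2.74 for Hand2. Hand2, a factor of the heart tube, differed by 5.88 in Sca1 cells and 7.96 in SP cells, and it too was not called in heart c-kit cells (0.52, adjusted p = 0.78, limma). Gata4, Tbx5 and Isl1, factors of the early heart, did not pass, at 0.80, 1.59 and 0.72. Of 20 mesothelial genes, which would mark epicardial cells by another route, 4 were higher, none was lower and none was shared, with a median of 1.14. That is 20% called, near the 20.5% of all genes. The mean level of the list on the Sca1 arrays was 0.18 and 0.09 but 2.26 on replicate 3, against -0.98 to -0.14 on the other heart arrays. Upk3b differed by 3.02 ± 0.79 and no longer passed with low values raised (1.77, adjusted p = 0.125, limma). Others did not pass, with Msln at 1.54 (adjusted p = 0.0901) and Krt19 at 0.03 (adjusted p = 0.985, limma).

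Fibroblast and matrix genes were higher in the pooled contrast, but few were shared. Of 29 measured, 23 were higher (all genes 9.12%) and 6 were not called, with a median of 3.14. The median was 4.84 in heart Sca1 cells and 4.52 in SP cells but -0.17 in heart c-kit cells, where 7 were higher and 4 lower. The F test among the heart groups passed for 23 of the 29, against 18.1% of all genes. Col15a1, Sparc, Col4a1, Serpinh1 and Fn1 were shared.

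Col15a1, a collagen of the vascular basement membrane zone, stood at 4.88, 2.86 and 4.17 in heart c-kit cells, 8.64, 8.99 and 8.90 in Sca1 cells and 8.33 and 6.73 in SP cells, against -0.75 to 1.83 in the marrow. The groups did not overlap, and the difference was 6.55 ± 0.47 (SE, limma adjusted p = 7.13e-07). Sparc, a collagen-binding glycoprotein, had 7.78 to 8.54 on the heart arrays, 7.88 to 8.11 in MSC and -5.50 to 0.83 in marrow c-kit cells. For Sparc and Fn1, fibronectin, the marrow MSC were thus as high as the heart, and the call came from marrow c-kit cells.

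The fibrillar collagen Col3a1 went both ways. It was at -5.41 to -5.02 in heart c-kit cells, a difference of -2.04 from the marrow mean (adjusted p = 0.038, limma). It was higher by 7.68 in Sca1 cells and by 7.39 in SP cells. Among 11 small leucine-rich proteoglycans 7 were higher (all genes 9.12%) and 4 were not called, with a median of 2.82. Dcn, decorin, differed by 6.92 ± 0.52 and was shared in all 27 alternatives, whereas Bgn, biglycan, was shared in 13 of them. MSC arrays overlapped the heart c-kit arrays for both.

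Genes of secreted and contact signals followed the same layout in part. Of 36 genes of the BMP and TGF-beta pathways 18 were higher (all genes 9.12%), with a median of 1.36. Grem1, a BMP antagonist, was the 1 that was lower (all genes 11.4%). Shared were the receptor gene Bmpr1a, at 3.93 ± 0.42, and Smad1, which carries its signal, at 2.34 ± 0.38. Of 31 Wnt receptors and modulators 11 were higher (all genes 9.12%), with a median of 1.57. Shared were the receptor Fzd4 (5.69 ± 0.64) and the secreted inhibitors Frzb (5.59 ± 0.53) and Wif1 (3.21 ± 0.40). For Fzd4 and Frzb the heart and marrow arrays did not overlap. Smad1 was shared in 21 of 27 alternatives and Wif1 in 17, the latter not without heart c-kit replicate 3 or heart Sca1 replicate 1 or 3. Sfrp2, which was at 8.19 to 8.56 in Sca1 and SP cells, was at 4.06, -3.65 and -1.97 in heart c-kit cells.

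Of 13 Notch pathway genes 3 were higher (all genes 9.12%) and 4 were lower (11.4%). The ligand gene Jag1 differed by 3.96 ± 0.35 with no overlap and the target gene Hes1 by 3.37 ± 0.49, and both were shared. Of 42 semaphorin, ephrin, Slit and netrin genes 15 were higher (all genes 9.12%) and 2 were lower (11.4%). Sema6d (4.84 ± 0.54), Sema3d (4.41 ± 0.49) and the netrin receptor gene Unc5b (4.10 ± 0.36) were among the 4 shared higher ones, while Sema4a (-5.24 ± 0.92) and Sema4d (-3.55 ± 0.53), semaphorins of immune cells, were the shared lower ones. Of 27 alternatives, Sema3d was shared in 12, Sema4d in 15 and Sema4a in 21, and each was lost when any of several single arrays was left out. Of 29 cadherin, claudin and connexin genes 11 were higher (all genes 9.12%) and none was lower. Shared among them were Tjp1 of tight junctions (4.34 ± 0.29), the connexin gene Gjc1 (5.87 ± 0.46), Cdh13 (3.84 ± 0.53) and Jam3 (2.41 ± 0.40), with Cdh13 shared in 19 of 27 alternatives and not without heart Sca1 replicate 2 or 3. Without that replicate 3 the Sca1 difference of Cdh13 moved from 2.37 to 1.48 (adjusted p = 0.207, limma).

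Immediate early genes, which respond within minutes to stimuli that include tissue dissociation, were higher for 19 of 23 (all genes 9.12%). Their median was 2.29. The medians were 3.52 in heart Sca1 cells, 2.71 in SP cells and 0.66 in heart c-kit cells, with 17, 17 and 6 genes called higher. Klf4, Klf6, Atf3 and Dusp1 were shared. Fosb was at 9.47 to 9.62 on the Sca1 and SP arrays, near the brightest spots, against 1.64 to 4.40 in heart c-kit cells and 3.09 to 4.23 in the marrow. The cardiomyocyte arrays had 9.35 and 9.57. Of 21 interferon and MHC genes 10 were higher (all genes 9.12%) and 1 was lower (11.4%). Ifit1 (5.57 ± 0.47), Isg15 (5.87 ± 0.58) and Gbp2 (3.51 ± 0.44) were shared with no overlap of arrays.

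Mitosis genes were lower in every heart group. Of 37 measured, 30 were lower (all genes 11.4%), none was higher and 7 were not called, with a median of -4.42. The medians in c-kit, Sca1 and SP cells of the heart were -4.49, -4.43 and -4.60, and the F test among the heart groups passed for 5. For 19 the fall was shared, and all 19 were below both marrow groups in each heart group. The mean level of the list was -1.26 to -0.88 on the 8 heart arrays, 3.69 to 3.86 in marrow c-kit cells and 2.12 to 2.75 in MSC, and -0.41 and 0.13 in cardiomyocytes. Of 33 DNA replication genes 25 were lower (all genes 11.4%) and none was higher, with a median of -2.70, and 10 were shared.

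As background, many mitosis genes carry a CHR element with CCAAT boxes near their start, where a repressor complex acts in resting cells and an activating one in dividing cells. Of 32 measured mitosis genes with an entry in the RefSeq promoter table (GRCm38.p6, 250 bases before to 50 after the start), 25 (78.1%) held the CHR letters TTTGAA and 24 (75%) the letters CCAAT, on either strand. Over 27025 genes of that table the shares were 18.1% and 37.9%. Of the 17 shared lower ones with an entry, 13 held TTTGAA and 14 held CCAAT. The matches are letters in a window and show no binding.

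Both motifs lie within 150 bases before to 30 after the start for 10 of the shared mitosis genes. The windows of the 3 with the largest differences among these 10 are shown, chosen for the matches. They are Cenpa (chr5:30666736-30666915, plus strand), the centromere histone, Ect2 (chr3:27153849-27154028, minus strand), needed for the furrow of cytokinesis, and Cdkn3 (chr14:46760391-46760570, plus strand), a phosphatase of the cell cycle. Capitals mark TTTGAA and CCAAT or their reverse complements TTCAAA and ATTGG, and no matches overlap.
Cenpa: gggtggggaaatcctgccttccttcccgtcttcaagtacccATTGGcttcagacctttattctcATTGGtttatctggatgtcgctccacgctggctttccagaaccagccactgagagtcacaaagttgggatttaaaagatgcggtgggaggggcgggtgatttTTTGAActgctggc
Ect2: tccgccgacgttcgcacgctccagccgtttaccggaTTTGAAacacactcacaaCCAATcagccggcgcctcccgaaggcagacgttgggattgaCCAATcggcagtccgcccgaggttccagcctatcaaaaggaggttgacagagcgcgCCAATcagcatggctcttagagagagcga
Cdkn3: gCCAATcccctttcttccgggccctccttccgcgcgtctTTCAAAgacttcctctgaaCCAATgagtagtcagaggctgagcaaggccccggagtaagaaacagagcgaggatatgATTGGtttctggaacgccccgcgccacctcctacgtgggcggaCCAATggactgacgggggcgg

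Cenpa was at -4.09, -5.10 and -1.81 in heart c-kit cells, 0.55, 0.14 and 2.01 in Sca1 cells and -5.06 and -2.84 in SP cells, against 4.93 to 6.76 in the marrow. Its difference was -8.18 ± 0.57 (SE, limma adjusted p = 5.64e-07). Ect2 was at -6.16 to -1.89 on the heart arrays, at 4.31 to 4.83 in marrow c-kit cells and at 1.00 to 1.76 in MSC, with a difference of -7.48 ± 0.58, and 5 of its 8 heart spots stood at the fill value. Cdkn3 differed by -5.95 ± 0.84, with heart arrays from -5.69 to -0.19 and marrow arrays from 0.25 to 2.64. The groups did not overlap for any of these genes. With low values raised, Ect2 differed by -4.58 and Cdkn3 by -3.29.

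Ccna2, the cyclin of DNA synthesis and mitotic entry, was among the largest falls at -8.87 ± 0.82 (SE, limma adjusted p = 4.67e-06). Its level was -3.13, -5.10 and -3.71 in heart c-kit cells, -6.38, -5.85 and -0.47 in Sca1 cells and -5.06 and -5.50 in SP cells, and 3.58 to 5.24 in the marrow. Bub1 of the spindle checkpoint (-8.55 ± 0.59), Pclaf, a partner of the replication clamp (-8.01 ± 0.57), and the repair genes Neil3 (-8.34 ± 0.40) and Polq (-7.24 ± 0.50) fell as well. With low values raised the differences were -5.88 for Ccna2, -5.68 for Bub1, -5.20 for Pclaf, -5.14 for Neil3 and -4.23 for Polq. Mki67, the gene of the Ki-67 antigen, was at -1.36 to 3.53 on the heart arrays and at 5.88 to 8.63 on the marrow arrays, a difference of -5.95 ± 0.63. Cdkn1a, an inhibitor of cyclin-dependent kinases, was higher by 2.09 ± 0.33 in the pooled contrast but not in Sca1 cells alone (1.30, adjusted p = 0.055, limma).

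Macrophage and pan-leukocyte genes were lower, too. Of 35 measured, 31 were lower (all genes 11.4%), none was higher and 4 were not called, with a median of -3.96, and 16 were shared. The medians were -2.75 in heart c-kit cells, -4.14 in Sca1 cells and -4.64 in SP cells. On the marrow side the mean level of the list was 3.52 to 3.82 in c-kit cells and 4.44 to 4.92 in MSC, although mesenchymal stem cells by their usual definition lack CD45. On the heart side it was 0.37 to 1.42 in c-kit cells, -0.59 and -0.50 in SP cells, and -0.94 to 1.06 in Sca1 cells, with the 1.06 on replicate 3. The part of leukocytes among the MSC in this comparison was not tested.

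Ptprc differed by -6.11 ± 0.63 (SE, limma adjusted p = 1.15e-05), and by -3.27, -6.47 and -8.60 in heart c-kit, Sca1 and SP cells. The heart arrays had -2.27 to 5.17 and the marrow arrays 6.30 to 8.39. Laptm5, which encodes a membrane protein of leukocyte lysosomes, stood at 6.58, 5.67 and 6.03 in heart c-kit cells, 1.57, 3.55 and 4.84 in Sca1 cells and -2.46 and -3.50 in SP cells, against 8.17 to 9.25 in the marrow. Was, a regulator of actin in blood cells, was at -3.91 to 0.70 in the heart and at 4.65 to 7.02 in the marrow, a difference of -7.23 ± 0.77. None of the 3 overlapped between heart and marrow, though Laptm5 and Ptprc stayed clearly above the fill value in heart c-kit cells.

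The promoter windows of Was (chrX:8090462-8090641, minus strand) and Laptm5 (chr4:130913166-130913345, plus strand) are shown for the letters GGAAGT, which ETS factors such as PU.1 can bind. They are the 2 with the largest differences among the 4 shared leukocyte genes with a match in the window, and were chosen for it. Capitals mark GGAAGT or its reverse complement ACTTCC, searched on both strands, and the matches do not overlap here. These letters were in 13 of 26 measured leukocyte genes with an entry (50%), in 5 of the 12 shared lower ones (41.7%) and in 24.1% of all promoters. They were also in 47.1% of the shared lower mitosis genes and in 37.1% of all shared lower genes. The longer PU.1 letters GAGGAAGT were in 0 of those 12 and in 3.28% of all promoters.
Was: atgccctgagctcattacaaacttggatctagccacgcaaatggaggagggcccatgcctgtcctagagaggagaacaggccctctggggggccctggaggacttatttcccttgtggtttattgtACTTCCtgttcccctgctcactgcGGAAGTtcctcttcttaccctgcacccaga
Laptm5: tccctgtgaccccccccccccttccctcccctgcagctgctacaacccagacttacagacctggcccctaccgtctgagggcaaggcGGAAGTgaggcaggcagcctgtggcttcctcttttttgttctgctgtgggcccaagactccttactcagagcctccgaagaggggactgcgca

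The gene of PU.1 itself, Spi1, differed by -1.42 ± 0.43 in the pooled contrast (limma adjusted p = 0.0325), and it was not called in heart c-kit cells (-1.83, adjusted p = 0.051) or in Sca1 cells (-0.18, adjusted p = 0.89). Of 34 transcription factors of blood cells 14 were lower (all genes 11.4%) and 4 were higher (9.12%), with a median of -1.44. Of the lower ones 6 were shared. Runx3, a factor of T cells and myeloid cells, was at -6.38 to -3.87 in the heart and at 1.36 to 4.21 in the marrow, a difference of -8.19 ± 0.50 (limma adjusted p = 3.7e-07) that was -4.73 with low values raised. Its relative Runx1 differed by -2.72 ± 0.54 and still stood at 1.97 to 5.03 on the heart arrays, and it was shared in only 6 of 27 alternatives. Tal1 and Gata2, factors of blood stem cells, did not pass, at -1.69 and -2.42. Without heart Sca1 replicate 3 Tal1 passed, at -2.05 (adjusted p = 0.0435, limma).

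Neutrophil granule genes were lower as well, but most of those called were high in marrow c-kit cells alone. Of 19 measured, 10 were lower (all genes 11.4%) and none was higher. The fall was shared for 7, but only 1 of these 7 was below both marrow groups in every heart group. Mpo, myeloperoxidase, was at 9.53 to 9.60 in marrow c-kit cells, at -1.93 to -0.64 in MSC and at -1.20 to 2.32 in the heart. The shared call of such genes does not separate the heart from MSC. Mcpt8, a protease of basophils, did separate them, at 6.26 to 6.44 in marrow c-kit cells, 5.06 to 5.21 in MSC and -5.65 to -2.27 in the heart.

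Other genes high on both marrow sides were Tbxas1, the thromboxane synthase (-9.53 ± 1.14), the hexokinase gene Hk3 (-8.50 ± 0.63), the lipid flippase gene Atp8b4 (-10.18 ± 0.55) and Ncf4, a part of the phagocyte oxidase (-7.07 ± 0.51). Tbxas1 was at 2.14 on heart Sca1 replicate 3 and at -6.16 to -1.83 on the other heart arrays, and it differed by -10.41 without that array. Mast cell genes were mixed, with 2 of 13 higher (all genes 9.12%) and 4 lower (11.4%). Cma1, mast cell chymase, was at 3.04 to 3.91 in heart c-kit cells, at -3.36 to -0.35 in the other heart groups and at -3.32 to -1.53 in the marrow.

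Of 38 Hox genes, which record position along the body axis, 7 were lower, 5 were higher and 26 were not called, with a median of -0.09. That is 31.6% called, against 20.5% of all genes. Hoxa9 and Hoxa11 were the shared ones. Hoxa9 was at -5.85 to -2.09 in the heart and at -0.78 to 0.70 in the marrow, a difference of -3.94 ± 0.59 (SE, limma adjusted p = 0.000263) with no overlap, although it was not shared when either cardiac SP array was left out and was -1.62 with low values raised. Hoxa11 was at 4.15 to 5.01 in MSC but at -3.87 to -1.74 in marrow c-kit cells, overlapping the heart range of -5.85 to -1.97.

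**Figure D5:**
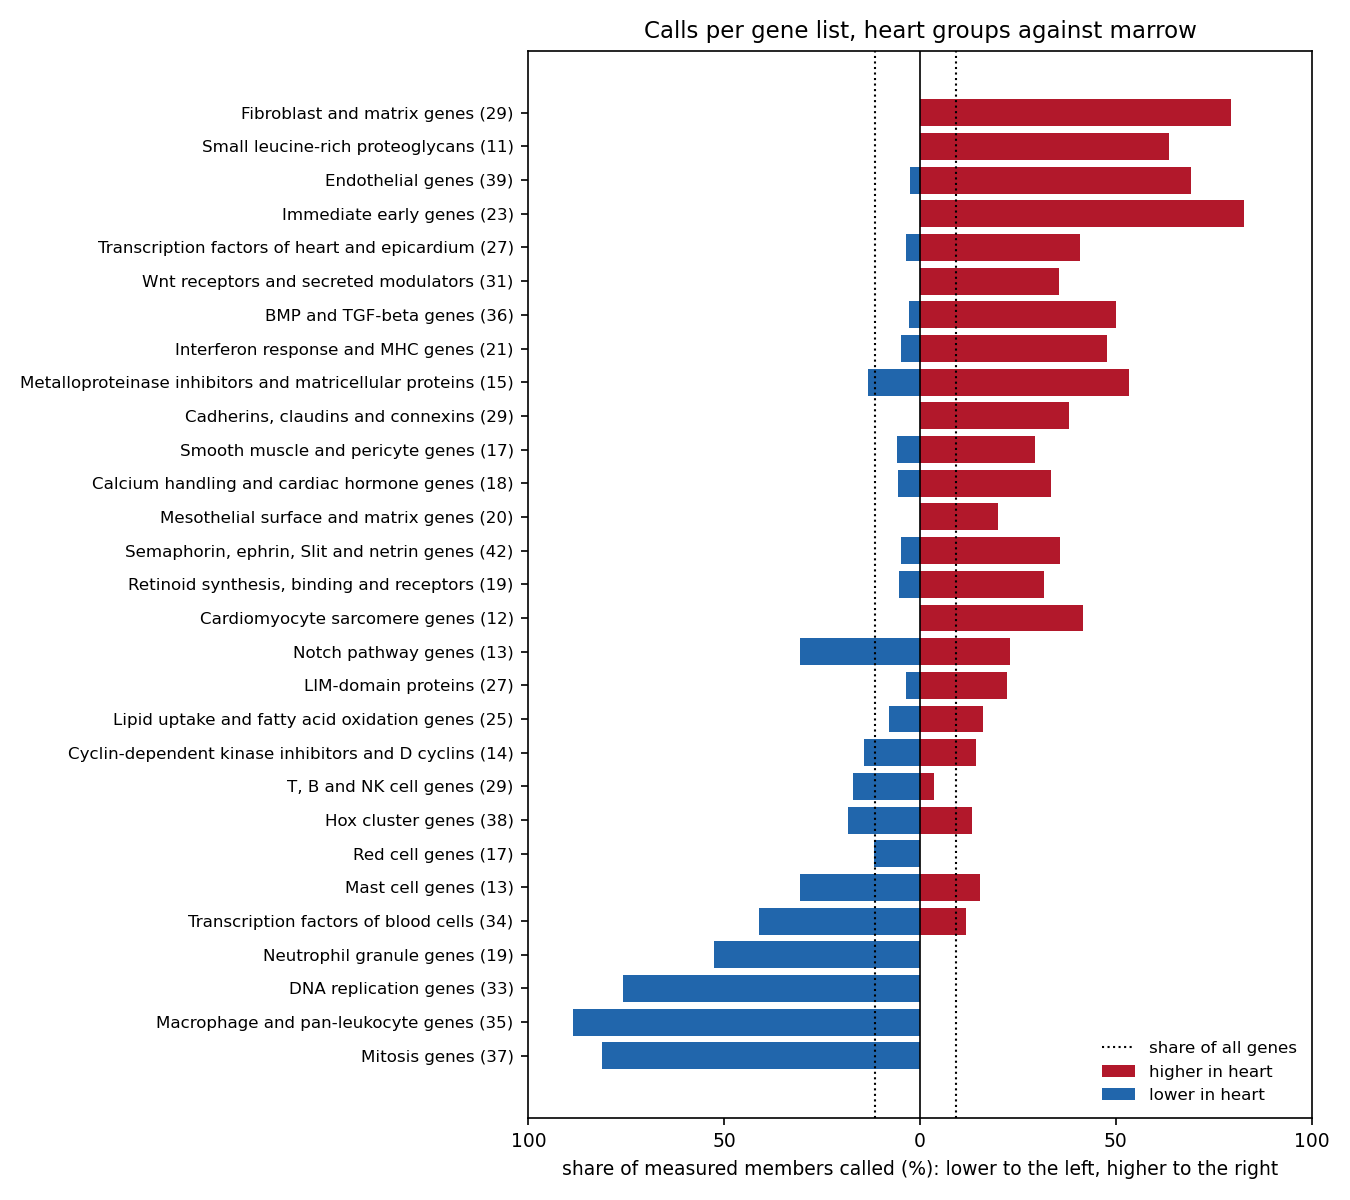
Share of the measured members of each gene list (number in brackets) called higher (red, to the right) or lower (blue, to the left) in the mean of the heart groups against the marrow, in percent. Dotted lines give the share of all genes, 9.12% higher and 11.4% lower. Immediate early, matrix and endothelial genes have the largest shares on the right, and leukocyte, mitosis and replication genes on the left.

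Calls per list were counted without heart Sca1 replicate 3 but not without replicate 1 or 2. Over all genes the pooled calls fell from 3631 to 3205 without replicate 3. They fell alike without replicate 1 (3195) or replicate 2 (3189), so a loss of calls was not particular to replicate 3. Without replicate 3, called members changed in several lists. Higher ones numbered 16 of 23 for immediate early genes, 16 of 36 for the BMP and TGF-beta genes, 10 of 31 for the Wnt genes, 10 of 27 for heart transcription factors, 9 of 21 for interferon genes and 5 of 27 for LIM-domain genes. Of 37 mitosis genes 28 were lower, and of 13 mast cell genes 1 was higher and 5 were lower. Shared members fell to 1 for the proteoglycans and the Notch genes, to 2 for the Wnt genes, to 3 for the contact genes, to 5 for the guidance genes and to 9 for the replication genes, while the fibroblast, sarcomere and leukocyte counts stayed the same.

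The 3 heart groups differed among themselves at 3210 genes (18.1%) by the F test. The test passed for 63 of the 287 shared higher genes (22%) and for 52 of the 372 shared lower genes (14%). In the cardiomyocytes, the reference, Wt1 was at 6.45 and 6.06 and Sox7 at 5.30 and 5.66, and no progenitor group had a higher mean of either gene than the cardiomyocyte preparation.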

How the data were processed

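Total RNA of each sample was amplified (WT-Ovation Pico) and labelled with Cy5 for hybridisation to a 2-colour mouse array, per the labels' protocols. The deposited log2 values were taken to be Cy5 spot values. The values themselves are centred on each array's mean, except on MSC replicate 3, where the mean was 0.30. How the fill value was set, and the scanner settings, are not stated in the labels or files used.

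Of 26423 probes, 20339 could be given 1 current gene symbol. The probe with the highest mean over all arrays stood for a gene, which left 17710 genes (2273 of them with several probes). Array medians spanned 1.45 log2 units, over the limit of 0.5 set for it, so the arrays were quantile normalised. Group means of all 16 arrays were fitted with limma 3.58.1 (R 4.3.3), with 10 residual degrees of freedom, with Benjamini-Hochberg adjustment over all genes. An F test compared the 3 heart groups.

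Genes were named by 4 parts of a rule: the markers, the sort genes, the 15 highest and 15 lowest shared genes without overlap, and up to 4 called and 2 uncalled members of each list. Further list members, named because every heart group shared them or because they define a cell type, were chosen after their values were seen. The members and lists were chosen with earlier results of these data known. On simulated data for the contrast of cardiac progenitors with marrow (17710 genes, 200 changed), 30.7% of changes of 2 log2 units, 80% of 4 and 95.3% of 6 were recovered. The shared rule kept only 1.33%, 46.7% and 74.7% of them. A gene that failed the shared rule may therefore still differ in every heart group. Far fewer genes were changed in the simulation than the 3631 called in the real data. The Benjamini-Hochberg limit thus fell at a smaller unadjusted p, and the simulated rates may understate recovery in the real data. Promoter sequences are those of RefSeq, GRCm38.p6.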

Additional observations from a re-analysis of the deposited data

Results flagged for a closer look

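The size of the difference from the marrow was not the same in the 3 heart groups for 36 of the genes named, by the F test among the heart groups (limma, adjusted over all genes). All 3 contrasts use the same marrow arrays, so the test compares the heart groups with each other.

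These matrix and stromal genes had their lowest mean in heart c-kit cells. The adjusted p was 1.9e-06 for Col3a1, 0.000647 for Col1a2, 0.000988 for Col15a1, 0.00045 for Bgn, 0.00761 for Dcn, 0.0207 for Dpt, 0.013 for Adamts1, 0.00048 for Gas1 and 0.0351 for Des. The Wnt modulators Sfrp2 (0.000966), Frzb (0.00265) and Wif1 (0.0186) had their lowest mean in heart c-kit cells too, as did Sema3d (0.0066), Rbp4 (0.029) and Ramp2 (0.000595). The transcription factors Tbx20 (0.00786), Tcf21 (0.0293) and Hand2 (0.00204) and the immediate early genes Fosb (2.47e-05), Klf4 (0.0134) and Atf3 (0.00627) shared that layout.

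A further 8 genes had their highest mean in heart c-kit cells. The adjusted p was 0.00462 for Cdh5, 0.0439 for Sox17, 0.0157 for Robo4, 0.00265 for Kit, 0.00797 for Ptprc, 2.22e-05 for Laptm5, 0.000584 for Cma1 and 2.58e-06 for Spp1. Wt1 (0.0407) and Ifit1 (0.00744) were also highest there and lowest in cardiac SP cells. The sarcomere genes Tnni3 (0.000156) and Actc1 (0.01) were lowest in cardiac SP cells and highest in Sca1 cells, whereas Tnnt2 had its highest mean in SP cells. Cenpa (0.00288), Grem1 (0.0404) and Vwf (0.032) were highest in Sca1 cells.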

How the results depend on the processing

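Of 193 genes named by rule, 135 were called, and 120 of these stayed called in every alternative that tested them (26 or 27 each, population means aside). No named gene changed sign where it was called in the main fit or in the alternative. Sign changes of uncalled genes were not counted, such as Krt19 (0.03, and -0.27 without heart Sca1 replicate 3). The shared call also ended without heart c-kit replicate 1 for Ptprc and Rgs5, replicate 2 for Cd34 and Laptm5 and replicate 3 for Fn1 and Frzb, without heart Sca1 replicate 1 for Cdkn3 and replicate 3 for Hes1, and without cardiac SP replicate 1 for Nrp1 and Klf6 and replicate 2 for Jam3 and Mpo. With population means as replicates the pooled contrast called 10 genes (2 higher, 8 lower). Array weights per group gave 1240 genes in heart c-kit, 4624 in heart Sca1 and 1784 in cardiac SP cells, 419 shared genes, of which 385 were among the 659, and 1518 genes in the F test. Leaving out 1 array at a time gave 2821 to 4056 genes in the pooled contrast, 1565 to 2488 in heart c-kit, 1835 to 3082 in heart Sca1 and 3160 to 4364 in cardiac SP cells, 527 to 693 shared genes and 2310 to 3599 in the F test. Without the dimmest heart c-kit and cardiac SP arrays, an alternative chosen after seeing the data, 4349 genes were called and 649 were shared. Same-numbered arrays deviated together at r = -0.143 to 0.204 (median 0.00739), and 5 of 14 arrays matched their own number best. These values show no pairing by number but cannot exclude it, because each deviation is from the mean of few arrays. With the replicate block 3458 genes were called and 620 were shared. In the simulated data, with only 200 genes changed, 30.7% of differences of 2 log2 units were recovered and 1.33% met the shared rule. These rates may understate recovery in the real data. Values at the fill value have no order.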

Other observations

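Genes of mural cells were partly higher in the heart groups. Of 17 smooth muscle and pericyte genes 5 were higher (all genes 9.12%) and 1 (Tagln) was lower (11.4%), with a median of 1.18. Tagln was no longer called with low values raised (limma adjusted p = 0.151). The shared ones were Des, which encodes the filament protein desmin (4.66 ± 0.38), the pericyte regulator Rgs5 (3.67 ± 0.44) and Cald1, caldesmon (4.21 ± 0.55). For Des and Rgs5 the heart and marrow arrays did not overlap, whereas Cald1 was at 7.04 to 7.20 in MSC against 4.35 to 6.17 in the heart, and its difference was 2.57 with low values raised. Sparcl1, a matricellular relative of Sparc, was at 5.49 to 8.44 on the heart arrays and at -0.53 to 2.50 on the marrow arrays. Spp1, osteopontin, was at 5.42 to 5.62 in heart c-kit cells but at -5.06 and -5.50 in SP cells, and at 8.51 to 8.72 in MSC.

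Genes of retinoid handling were higher for 6 of 19 and lower for 1, with a median of 1.04. Rbp4, the retinol carrier of plasma, was the shared one at 4.10 ± 0.40. Of 25 genes of lipid uptake and oxidation 4 were higher and 2 were lower, with a median of 0.21, and Fabp4, a fatty acid carrier, was shared at 4.66 ± 0.60 although MSC had 7.07 to 7.79. Of 18 calcium handling and hormone genes 6 were higher, 1 was lower and none was shared. Gas1, a membrane protein induced by growth arrest, was at 7.84 to 8.16 in Sca1 and SP cells and at 4.20 to 4.97 in heart c-kit cells, a difference from the marrow of 4.98 ± 0.33. Of 29 lymphocyte genes 5 were lower and 1 was higher, with a median of -0.06, and of 17 red cell genes 2 were lower and none was higher, with a median of -0.52. The share called in either direction was 20.7% for lymphocyte, 11.8% for red cell and 24% for lipid genes. It was 20.5% over all genes, so these counts are near or below the common share. For retinoid and calcium genes the share was 36.8% and 38.9%.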
